A study of Rattus norvegicus with 12 samples.

Results

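The comparison set rat cells given mesenchymal stem cells (MSCs) together with repetitive transcranial magnetic stimulation (rTMS), the group labelled rTMS-MSCs, against cells that had the injury alone, the group labelled OGDR. Its members are the 8 libraries whose labels place them in these 2 groups, 4 in each, out of 12 libraries in the series. Every group went through oxygen-glucose deprivation and reoxygenation, so no group is free of that injury. OGDR cells had nothing further. The rTMS-MSCs cells had the stem cells and stimulation at 10 Hz, and the time given for all groups is 48 h after treatment. The remaining 4 libraries, labelled MSCs, had the stem cells without stimulation, and their levels are given beside those of the 2 groups without a test. Since no group had stimulation alone, stem cells and stimulation cannot be told apart in this comparison. No label or text used here gives the species and source of the stem cells, how they were brought together with the PC12 cells, or the schedule of stimulation. Nothing in the labels tells whether replicates came from separate cultures, so every p-value measures only the spread between these samples, which may be technical.

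PC12 is a line from a rat tumour of the adrenal medulla that is widely used as a stand-in for neurons. Withdrawal of oxygen and glucose followed by their return is used as a culture model of ischaemia and reperfusion. When cells run short of oxygen, the hypoxia-inducible factors switch on genes of glucose uptake, glycolysis and vessel growth. When they run short of amino acids or fold proteins poorly, kinases of the integrated stress response raise the transcription factor ATF4, which drives amino acid transporters and synthetases. Glucocorticoid hormones act through a receptor that enters the nucleus and switches on a small set of genes shared by many tissues, Fkbp5, Tsc22d3, Per1 and Sgk1 among them. Mesenchymal stem cells are stromal cells that secrete growth factors and mediators, and rTMS applies brief magnetic pulses that induce currents.

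Raw read counts were available for 30454 genes, of which 20776 had at least 1 count and 13692 passed the filter on low counts and were tested. The 8 libraries held 19072047 to 20471838 counts in genes each. Levels are in CPM, which scales each library to the same total, and at these depths 1 CPM corresponds to 18.9 to 20.7 counts. CPM does not correct for transcript length, so levels are compared between groups and not between genes. Where 2 levels are joined by "to" in the account of a gene, they are the means of OGDR and of rTMS-MSCs in that order, and a log2 difference is the fitted log2 fold change between them. Library 3 of rTMS-MSCs stood apart from its group. Its counts differed from those of the other 3 by 13.2 to 24.5 units of chi-square per degree of freedom, against 4.32 to 6.97 among those 3, and ribosomal protein genes took 3.46% of its counts, against 2.72% to 2.97% in the other 3. Counts and medians of gene lists that moved by over 1.5 times without it are given both ways, or as a range over the libraries left out.

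The labelled cell type was checked against marker genes. Of 11 defining genes of chromaffin cells, the normal counterpart of PC12, 6 did not reach 1 CPM in any of the 8 libraries, and Ddc among them had no count. The 11 genes together summed to 3.33 to 4.98 CPM in OGDR and 4.08 to 5.52 CPM in rTMS-MSCs. The 8 defining genes of Schwann cells and other glia summed to 749 to 838 CPM in OGDR and 840.0 to 946 CPM in rTMS-MSCs. Defining macrophage genes stayed at 2.71 to 4.63 CPM and 2.51 to 3.95 CPM, with Tyrobp and C1qa at no count. The wider list of 28 chromaffin markers summed to 371 to 439 CPM in OGDR and 317 to 336 CPM in rTMS-MSCs, and only 2 of these genes averaged 10 CPM or more, Scg2 (293 to 207 CPM) among them. The defining genes therefore go against the chromaffin character of the label, and the cells are called here by the label's name only. In bulk RNA, fewer cells of a type and less RNA per cell cannot be told apart.

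Between the groups, 4439 genes passed the quasi-likelihood test at an adjusted p under 0.05, which is 32.4% of those tested. The number higher in rTMS-MSCs was 2215 (16.2%) and the number lower was 2224 (16.2%). These shares are the background for the counts of every gene list below. Most differences were small: the median absolute log2 fold change of the genes that passed was 0.40, 275 genes were at least 2-fold higher and 135 were at least 2-fold lower. The share of genes that passed grew with level, from 5.04% of 932 genes under 1 CPM to 47.6% of 2553 genes at 100 CPM or more. The 4 values of one group did not overlap those of the other in 1833 of the higher and 1760 of the lower genes. Over all tested genes, passed or not, 4149 (30.3%) did not overlap, 15.5% higher and 14.8% lower. Without library 3 of rTMS-MSCs the count was 3810, and 80.6% of the genes that had passed did so again. Counts in the mitochondrial genome took 3.29% to 3.73% of OGDR libraries and 2.83% to 3.29% of rTMS-MSCs libraries.

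**Figure D1:**
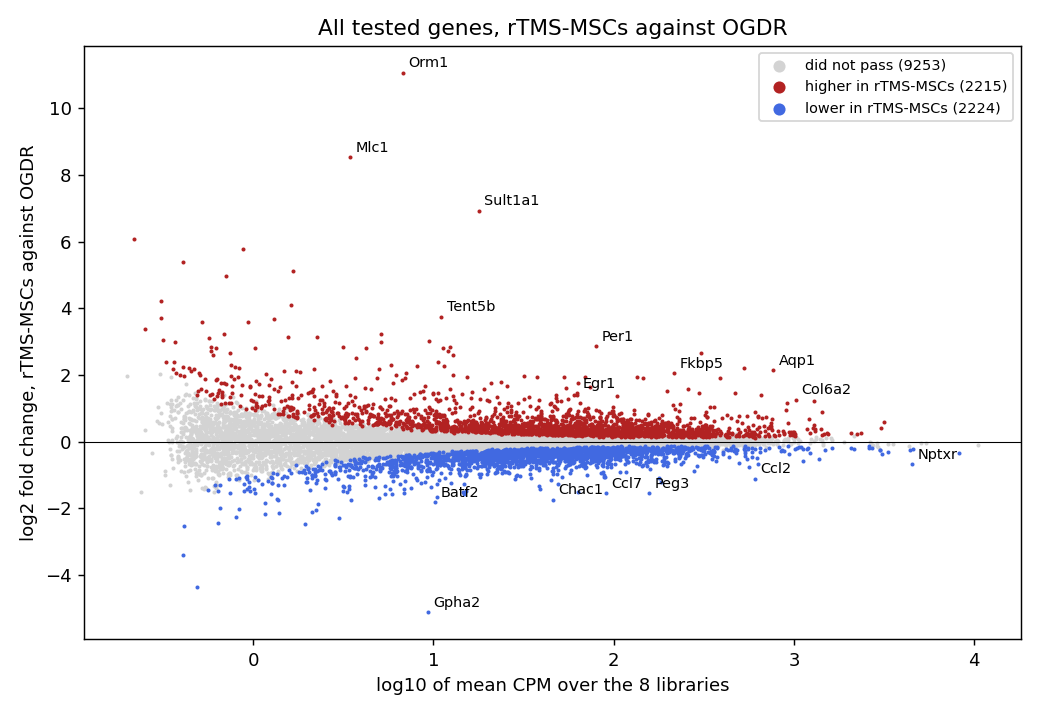
Each point is 1 of 13692 tested genes, with the log10 of its mean CPM over the 8 libraries on the horizontal axis and its log2 fold change (rTMS-MSCs against OGDR) on the vertical axis. Red and blue mark the 2215 higher and 2224 lower genes at adjusted p under 0.05; large changes sit mostly above 0 and small changes fill both sides.

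Promoters of 5 of the genes that moved are shown first, because 3 of the gene groups described next are defined by a transcription factor with a known binding motif. They are RefSeq sequences of build GRCr8, 300 bases around the start of the gene and mostly before it, printed 5′ to 3′ along the gene's strand, with matches of the motif that the gene is shown for in capitals and any other motif left in lower case. The ATF4 amino acid response motif was searched as TGATGNAA on both strands. It was present in 3.82% of 27457 promoters in the table and in 1.97% of those of the 9773 tested genes that have one there. Of 24 integrated stress response genes that fell, 21 had a promoter in the table and 6 of these held it (Cars1, Chac1, Pycr1, Slc1a4, Slc7a1 and Trib3). The E-box of clock factors, CACGTG, which contains the hypoxia response core ACGTG, was in 9.43% of promoters of tested genes and in 4 of the 9 available for clock genes that fell (Bhlhe40, Bhlhe41, Ciart and Tef). The glucocorticoid receptor motif, ACANNNTGT, was in 3.71% of promoters of tested genes and in 4 of the 18 available for glucocorticoid-responsive genes that rose (Fam107a, Glul, Lcn2 and Map3k6). A match describes the letters of the window and is not a bound site. Since the gene groups are defined by these factors, the shares do not tie a motif to a direction of change. Chac1 (chr3:126795881-126796180 on the plus strand), Trib3 (chr3:161275484-161275783 on the minus strand) and Slc1a4 (chr14:98761513-98761812 on the minus strand) show the first motif, Ciart (chr2:186112197-186112496 on the minus strand) the second and Glul (chr13:68519250-68519549 on the plus strand) the third.
Chac1: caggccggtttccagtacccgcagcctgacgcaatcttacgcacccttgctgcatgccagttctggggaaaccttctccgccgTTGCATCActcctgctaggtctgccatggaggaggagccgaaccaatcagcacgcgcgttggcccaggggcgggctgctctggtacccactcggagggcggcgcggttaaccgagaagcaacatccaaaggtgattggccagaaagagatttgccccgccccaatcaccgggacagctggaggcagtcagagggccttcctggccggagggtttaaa
Trib3: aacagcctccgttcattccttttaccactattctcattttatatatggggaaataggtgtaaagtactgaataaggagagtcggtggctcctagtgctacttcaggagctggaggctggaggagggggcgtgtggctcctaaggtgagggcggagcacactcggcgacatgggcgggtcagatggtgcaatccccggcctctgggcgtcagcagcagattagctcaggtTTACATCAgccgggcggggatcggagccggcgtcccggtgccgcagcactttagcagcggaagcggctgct
Slc1a4: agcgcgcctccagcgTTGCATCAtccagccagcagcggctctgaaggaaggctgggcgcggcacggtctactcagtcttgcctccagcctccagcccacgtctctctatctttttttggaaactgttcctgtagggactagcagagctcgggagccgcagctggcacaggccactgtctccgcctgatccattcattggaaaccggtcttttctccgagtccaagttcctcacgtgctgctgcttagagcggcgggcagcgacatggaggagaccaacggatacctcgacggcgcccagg
Ciart: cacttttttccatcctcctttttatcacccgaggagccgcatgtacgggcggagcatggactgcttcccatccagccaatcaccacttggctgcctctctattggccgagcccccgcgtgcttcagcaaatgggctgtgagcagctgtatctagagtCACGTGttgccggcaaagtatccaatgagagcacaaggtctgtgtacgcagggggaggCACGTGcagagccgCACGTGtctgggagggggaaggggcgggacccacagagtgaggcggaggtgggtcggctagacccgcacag
Glul: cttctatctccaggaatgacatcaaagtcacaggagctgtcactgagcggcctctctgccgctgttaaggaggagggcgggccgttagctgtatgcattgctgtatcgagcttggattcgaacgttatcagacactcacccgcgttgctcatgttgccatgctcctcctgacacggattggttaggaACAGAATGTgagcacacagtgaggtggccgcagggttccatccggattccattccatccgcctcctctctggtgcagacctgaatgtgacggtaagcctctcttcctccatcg

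Glucocorticoid-responsive genes were mostly higher. Of 24 tested members, 19 rose, 1 fell and 4 did not pass, with a median log2 fold change of 0.94 beside 0.01 over all tested genes. Of the 19, 10 were at least 2-fold higher. The list was added in an earlier analysis of these libraries after results had been seen, so its direction is no independent evidence. Per1, a clock gene that is also a direct target of the hormone receptor, was at 20.6, 20, 17.8 and 19.4 CPM in OGDR and 146, 146, 139 and 133 CPM in rTMS-MSCs (log2 fold change 2.86, SE 0.0698, adjusted p = 4.62e-17). All 4 treated libraries lay far above all 4 OGDR libraries, and a lack of overlap was a condition for being named among the largest changes. Fkbp5, which encodes a co-chaperone of the receptor, was at 90.7, 84, 84.9 and 77.4 CPM in OGDR and 340.2, 352, 367 and 329 CPM in rTMS-MSCs (log2 fold change 2.04, SE 0.0608, adjusted p = 1.37e-15). Tsc22d3, which encodes the anti-inflammatory protein GILZ, was at 26.7, 29.1, 28.1 and 31.6 CPM in OGDR and 116, 104, 103 and 117 CPM in rTMS-MSCs (log2 fold change 1.93, SE 0.0684, adjusted p = 1.82e-14). The groups did not overlap in Fkbp5 or in Tsc22d3.

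Sult1a1, a phenol sulfotransferase, had the largest change of the list, at 0.341, 0.0986, 0.482 and 0.208 CPM in OGDR and 36.8, 30, 37.1 and 37.7 CPM in rTMS-MSCs (log2 fold change 6.93, SE 0.194, adjusted p = 4.7e-16). It was close to absent in every OGDR library and present in every rTMS-MSCs library, of which library 2 was the lowest. Sgk1, a kinase that regulates ion transport, went from 61.7 to 231 CPM (log2 difference 1.90, adjusted p = 1.21e-14), and Klf15, a transcription factor of amino acid and lipid metabolism, from 7.83 to 20.9 CPM (log2 difference 1.41, adjusted p = 3.1e-08). Glul, the glutamine synthetase whose promoter is shown above, was at 63.8, 69, 64.7 and 69.2 CPM in OGDR and 123, 121, 118 and 123 CPM in rTMS-MSCs (log2 fold change 0.87, SE 0.0575, adjusted p = 4.51e-10). Nr3c1, the gene of the receptor itself, was the member that fell. In the MSCs group the means were 120.1 CPM for Per1, 335 CPM for Fkbp5, 113 CPM for Tsc22d3 and 31 CPM for Sult1a1. The median of the list was 0.95 in MSCs against OGDR, a comparison that shares the OGDR libraries.

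Several of the largest increases lay outside that list. Orm1, which encodes the acute-phase protein orosomucoid, had no count in any OGDR library and was at 15, 13.5, 14.6 and 11.2 CPM in rTMS-MSCs. Against a floor of 3 counts over all 4 OGDR libraries, it was at least 365-fold higher. Mlc1, which encodes a membrane protein of astrocytes, had 1 count in OGDR and was at 6.03, 7.69, 5.62 and 8.22 CPM in rTMS-MSCs, a ratio of 557 with an exact 95% interval of 99.6 to 22047 that covers counting error only. Tent5b, a poly(A) polymerase family member, was at 1.66, 2.17, 1.25 and 1.04 CPM in OGDR and 20.1, 23.3, 18.4 and 20.5 CPM in rTMS-MSCs (log2 fold change 3.74, SE 0.169, adjusted p = 1.18e-12). These 3 genes separated the groups in every library, which was a condition for being named among the largest changes.

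Txnip, an inhibitor of thioredoxin that also restrains glucose uptake, was at 3.07, 3.65, 3.13 and 2.29 CPM in OGDR and 19.7, 18.2, 21.4 and 27.6 CPM in rTMS-MSCs (log2 fold change 2.84, SE 0.151, adjusted p = 1.28e-11), and library 4 was the highest. Other large increases were in Clec3b (tetranectin, 3.24 on the log2 scale), Cadm3 (a neural adhesion molecule, 3.01), Lrrc32 (which anchors latent TGF-beta, 2.98), Ogn (the matrix proteoglycan osteoglycin, 2.82), Cfap100 (a cilium protein, 2.80) and Shroom3 (an organiser of apical actin, 2.80). Among the largest gains in CPM, Aqp1, a water channel, was at 292, 276, 277 and 284 CPM in OGDR and 1176, 1197, 1301 and 1327 CPM in rTMS-MSCs (log2 fold change 2.15, SE 0.0497, adjusted p = 4.62e-17). Cst3, the protease inhibitor cystatin C, was at 189.7, 202, 186 and 176 CPM in OGDR and 818, 849, 1006 and 813 CPM in rTMS-MSCs (log2 fold change 2.21, SE 0.0696, adjusted p = 2.93e-15). Gpd1, the cytosolic glycerol-3-phosphate dehydrogenase, rose from 84.2 to 529 CPM (log2 difference 2.65, adjusted p = 4.62e-17). None of these genes overlapped between the groups. The rule that named the largest changes required this of all but Gpd1, which was chosen after its values were seen.

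**Figure D2:**
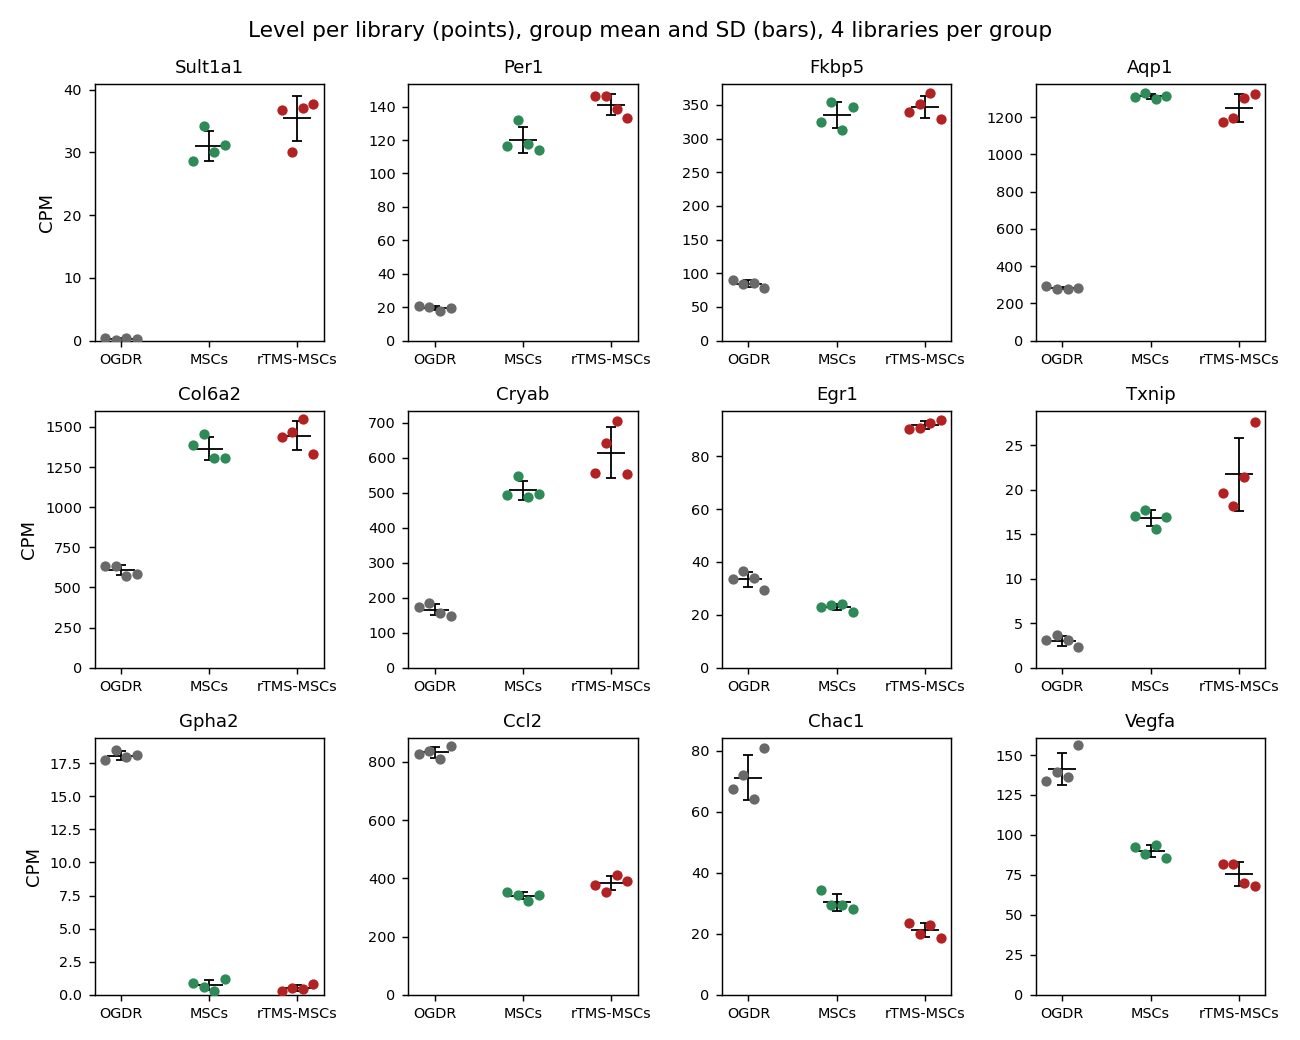
The panels plot CPM per library on a linear axis from 0 for 12 genes in OGDR, MSCs and rTMS-MSCs, with bars for the group mean and SD of 4 libraries. The OGDR and rTMS-MSCs points do not overlap in any panel, which the naming rule required of some of these genes. Egr1 in the MSCs libraries averaged 23 CPM, below both other groups.

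Several chemokine genes were lower. Of 23 tested chemokine and cytokine genes, 5 fell, 2 rose and 16 did not pass (median -0.10), a share of 30.4% that is close to the background of 32.4%. Ccl2, which attracts monocytes, was at 827, 836, 809 and 855 CPM in OGDR and 379, 353, 413 and 389 CPM in rTMS-MSCs (log2 fold change -1.12, SE 0.0521, adjusted p = 2e-12). Its near neighbour in function Ccl7 was at 132, 140.2, 125 and 143 CPM in OGDR and 47.3, 47.1, 46.5 and 43.6 CPM in rTMS-MSCs (log2 fold change -1.55, SE 0.0665, adjusted p = 5.4e-13). Cxcl10, an interferon-induced attractant of T cells, went from 3259 to 2727 CPM (log2 difference -0.26, adjusted p = 0.00163), and Ccl4 from 11.2 to 5.04 CPM (log2 difference -1.15, adjusted p = 6.06e-06). Every treated library was below every OGDR library in all 4, which the naming rule required of Ccl7 and Cxcl10. The 2 that rose were Csf1, the macrophage growth factor (545 to 731 CPM, log2 difference 0.42, adjusted p = 5.14e-07), and Cxcl1, an attractant of neutrophils (16.1 to 25.5 CPM, log2 difference 0.67, adjusted p = 0.000232).

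Classical inflammatory cytokines were scarce. Il1b had 7 counts over all 12 libraries and was not tested. Il6 (1.2 ± 0.343 CPM in OGDR and 0.904 ± 0.287 CPM in rTMS-MSCs, SD, n = 4) and Tnf (1.77 ± 0.415 CPM in OGDR and 2.04 ± 0.463 CPM in rTMS-MSCs) did not pass the test, with log2 fold changes of -0.41 and 0.20. Among 36 tested genes of the NF-kB pathway, 7 rose, 8 fell and 21 did not pass (median 0.05, or 0.03 without OGDR library 4, 0.03 without rTMS-MSCs library 1 and 0.02 without rTMS-MSCs library 3). That is 41.7% called, against 32.4% of all tested genes, and the list had no common direction. The risers included Nfkbia, which encodes the inhibitor IkBa and is also on the glucocorticoid list. Nfkbia was at 45.7, 53.4, 43.4 and 45.5 CPM in OGDR and 89.4, 93.3, 94.6 and 81.1 CPM in rTMS-MSCs (log2 fold change 0.93, SE 0.073, adjusted p = 6.25e-09). Nfkbiz (14.4 to 32 CPM) and Tnfaip3 (26.7 to 33.1 CPM) rose as well. Nfkb1, a DNA-binding subunit, went from 124 to 101 CPM (log2 difference -0.29, adjusted p = 0.000755) and Rel, another subunit, from 6.93 to 4.33 CPM (log2 difference -0.68, adjusted p = 0.00251). Of 18 inflammasome genes, 5 rose and 3 fell (median -0.16, or -0.06 without OGDR library 4 and -0.08 without rTMS-MSCs library 3), 44.4% against 32.4% of all tested genes. Nlrp3, the sensor, was at 3.61, 3.3, 7.38 and 4.0 CPM in OGDR and 2.24, 1.47, 2.17 and 1.25 CPM in rTMS-MSCs (log2 fold change -1.35, SE 0.28, adjusted p = 0.000966) without overlap, while Pycard, its adaptor, went from 7.34 to 12.8 CPM (log2 difference 0.80, adjusted p = 0.00139).

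Genes of the interferon response and of antigen presentation were more often higher than lower, with 13 of 35 higher, 2 lower and 20 that did not pass (median 0.13). That is 42.9% called, against 32.4% of all tested genes. Stat2, a transducer of type I interferon, was at 179, 185, 190.2 and 184 CPM in OGDR and 273, 260.3, 267 and 269 CPM in rTMS-MSCs (log2 fold change 0.53, SE 0.0461, adjusted p = 2.35e-08). Oas1a, an antiviral synthetase, went from 47.5 to 79.8 CPM (log2 difference 0.75, adjusted p = 1.08e-06), and B2m, the light chain of class I molecules, from 933 to 1084 CPM (log2 difference 0.22, adjusted p = 0.00572). The 2 that fell were Batf2, at 17.6, 14.2, 17.2 and 14.6 CPM in OGDR and 4.83, 4.11, 4.29 and 4.71 CPM in rTMS-MSCs (log2 fold change -1.82, SE 0.155, adjusted p = 1.83e-08), and Rsad2, the antiviral protein viperin, at 292 to 190.2 CPM. Leaving out library 4 of rTMS-MSCs raised the number of lower genes from 2 to 4.

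The integrated stress response was lower as a group. Of 36 tested members, 24 fell, 1 rose and 11 did not pass, and the median log2 fold change was -0.36. Atf4, its transcription factor, was at 549, 597, 601 and 681 CPM in OGDR and 386, 394, 403 and 368 CPM in rTMS-MSCs (log2 fold change -0.65, SE 0.0586, adjusted p = 4.73e-08). Chac1, which degrades glutathione and carries the ATF4 motif in the promoter printed above, was at 67.4, 72.1, 64.2 and 81.1 CPM in OGDR and 23.6, 20, 22.8 and 18.5 CPM in rTMS-MSCs (log2 fold change -1.75, SE 0.0966, adjusted p = 2.33e-11). Trib3, a pseudokinase induced by ATF4, was at 101, 119.5, 111 and 145 CPM in OGDR and 49.7, 59.7, 66.3 and 52.2 CPM in rTMS-MSCs (log2 fold change -1.07, SE 0.0976, adjusted p = 5.5e-08). In all 3 genes the highest treated library was below the lowest OGDR library, and OGDR library 4 was the highest of its group. For Chac1 the naming rule required the lack of overlap.

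Other members that fell have roles in amino acid supply. Asns, asparagine synthetase, went from 169 to 111 CPM (log2 difference -0.60, adjusted p = 5.5e-08), the cationic amino acid transporter Slc7a1 from 179.9 to 108 CPM (log2 difference -0.74, adjusted p = 7.26e-07), and the cystine transporter Slc7a11 from 21 to 8.66 CPM (log2 difference -1.28, adjusted p = 3.39e-05). Sesn2, an inhibitor of mTORC1 under amino acid shortage, was at 114 to 68.1 CPM (log2 difference -0.75, adjusted p = 1.72e-08). The list medians of single libraries, as log2 differences from the OGDR mean, were -0.06, -0.03, -0.02 and 0.10 in OGDR and -0.46, -0.40, -0.23 and -0.36 in rTMS-MSCs. All 4 treated libraries were below all 4 OGDR libraries, and library 3 was the least low. Without it, 26 members fell. Without library 1 of rTMS-MSCs, 2 members rose instead of 1.

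Other stress lists had members in both directions. Among 22 chaperones and sensors of the endoplasmic reticulum, 5 rose and 2 fell (median 0.05), and this share of 31.8% is close to the 32.4% of all tested genes. The 2 that fell were the stress sensors Atf6 (54.7 to 36.7 CPM, log2 difference -0.58, adjusted p = 0.000295) and Ern1 (14.7 to 6.62 CPM, log2 difference -1.15, adjusted p = 0.000316), and the risers included the disulfide isomerase P4hb (log2 difference 0.21, adjusted p = 0.000835). The number of risers was 3 without OGDR library 4, and 5 genes fell without rTMS-MSCs library 4. Of 20 heat shock genes, 7 fell and 2 rose (median -0.003, from -0.03 without rTMS-MSCs library 3 to 0.01 without OGDR library 1), 45% against 32.4% of all tested genes. Cryab, a small heat shock protein of glia and muscle, was at 174, 183, 156 and 148 CPM in OGDR and 555, 642, 706 and 554 CPM in rTMS-MSCs (log2 fold change 1.89, SE 0.0796, adjusted p = 3.79e-13), against a lower level of Hsp90aa1, at 971 to 792 CPM (log2 difference -0.29, adjusted p = 0.00202). Of 38 antioxidant genes, 10 rose and 9 fell (median 0.07, or 0.04 without OGDR library 3 and 0.04 without rTMS-MSCs library 3). Hmox1, heme oxygenase, was at 414, 450.2, 439 and 466 CPM in OGDR and 283, 288, 331 and 271 CPM in rTMS-MSCs (log2 fold change -0.59, SE 0.0598, adjusted p = 2.22e-07), and Nfe2l2, the factor that drives many of these genes, went from 265 to 193 CPM (log2 difference -0.46, adjusted p = 1.66e-06). Fth1, the iron-storing ferritin heavy chain, rose from 2517 to 3784 CPM (log2 difference 0.59, adjusted p = 7.77e-07). Without rTMS-MSCs library 2, 5 antioxidant genes fell instead of 9.

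Hypoxia response genes changed in both directions, and 27 of 32 passed, 17 lower and 10 higher (median -0.26). Vegfa, the vessel growth factor, was at 134, 139, 136 and 156 CPM in OGDR and 82, 82.1, 70.2 and 68.4 CPM in rTMS-MSCs (log2 fold change -0.90, SE 0.0711, adjusted p = 6.68e-09). Hif1a, the inducible subunit of the hypoxia factor, was at 193, 192, 210.4 and 223 CPM in OGDR and 124, 111, 88.5 and 136 CPM in rTMS-MSCs (log2 fold change -0.83, SE 0.101, adjusted p = 2.69e-06). Bnip3, a mitophagy receptor, went from 114 to 60.9 CPM (log2 difference -0.90, adjusted p = 7.09e-09). Pdk1, a kinase that inhibits pyruvate dehydrogenase, went from 25.3 to 14.4 CPM (log2 difference -0.81, adjusted p = 6.52e-06), and the glucose transporter Slc2a1 from 72.4 to 47.8 CPM (log2 difference -0.60, adjusted p = 3.11e-06). Vhl, which encodes the subunit that targets the factor for degradation, was at 47.9, 49, 45.6 and 52.3 CPM in OGDR and 84.5, 77.8, 78.1 and 82.6 CPM in rTMS-MSCs (log2 fold change 0.73, SE 0.0668, adjusted p = 5.48e-08).

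The 10 that rose have varied roles. Ddit4, an mTORC1 inhibitor that is also on the glucocorticoid list, went from 57.2 to 108 CPM (log2 difference 0.91, adjusted p = 3.17e-10), and Adm, the vasodilator adrenomedullin, from 43.7 to 74.1 CPM (log2 difference 0.76, adjusted p = 5.21e-08). For glycolysis, 5 of 21 genes rose and 7 fell (median -0.10, or -0.16 without rTMS-MSCs library 3), 57.1% against 32.4% of all tested genes. Hexokinase 2 (Hk2, 102 to 60.3 CPM), Slc2a3 (107 to 68.6 CPM), Pgk1 (1611 to 1352 CPM) and Pkm (3250.1 to 2727 CPM) were lower. Aldoc (45.1 to 80.8 CPM), Pfkm (50.7 to 77.1 CPM) and Ldha (2134 to 2552 CPM) were higher.

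Transcripts of the respiratory chain come from the mitochondrial and the nuclear genome. None of the 13 mitochondrially encoded genes rose and 7 fell (median -0.19), while 14 of 52 nuclear-encoded genes rose and none fell (median 0.15, or 0.06 without rTMS-MSCs library 3). The nuclear share that rose was 26.9%, against 16.2% of all tested genes higher and 32.4% called in either direction. Mt-nd5, a subunit of complex I, was at 1260.0, 1276, 1340.4 and 1466 CPM in OGDR and 882, 894, 663 and 1164 CPM in rTMS-MSCs (log2 fold change -0.57, SE 0.112, adjusted p = 0.000671), with library 3 lowest and library 4 near the OGDR range. Counts of mitochondrial genes can include reads from near-identical nuclear copies. Without OGDR library 4 only 3 of the 13 fell. Ndufb9 (153 to 185 CPM, log2 difference 0.27, adjusted p = 0.00305) and Cox5a (149 to 179.5 CPM, log2 difference 0.27, adjusted p = 0.00389) were among the nuclear risers. Library medians of the nuclear list were 0.03, 0.08, -0.06 and -0.05 in OGDR and 0.05, 0.13, 0.38 and 0.05 in rTMS-MSCs, which overlapped, and library 3 of rTMS-MSCs was far above the rest. The number of nuclear genes that rose was 7 without that library, 7 without OGDR library 3 and 6 without OGDR library 4, and 2 genes fell without rTMS-MSCs library 4. Counts of ribosomal protein genes also changed without library 3. Of 70, 1 rose (Rps16, log2 difference 0.21, adjusted p = 0.0467) and none fell, and without library 3 none rose and 5 fell. Rps16 lost its call in 10 of the 14 other settings tried.

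Genes of sterol synthesis and transport were lower or did not pass. Of 26 tested, 14 fell and none rose (median -0.18), although 2 rose without rTMS-MSCs library 4 or with the replicate block, and 1 without OGDR library 2. Hmgcs1, an early enzyme of the pathway, was at 203, 232, 226 and 239 CPM in OGDR and 170.4, 166, 145 and 169 CPM in rTMS-MSCs (log2 fold change -0.47, SE 0.0697, adjusted p = 3.43e-05). Abca1, which exports cholesterol, was at 28.9, 33.5, 39.8 and 36 CPM in OGDR and 19.2, 18.8, 11.2 and 22.3 CPM in rTMS-MSCs (log2 fold change -0.95, SE 0.173, adjusted p = 0.00032), so synthesis and export genes were both lower. Every treated library was below every OGDR library in both genes. Fatty acid genes were mixed, with 5 of 31 higher and 8 lower (median 0.05, or 0.10 without OGDR library 1, 0.01 without OGDR library 4, 0.03 without rTMS-MSCs library 1 and 0.09 without rTMS-MSCs library 4). The share called was 41.9%, against 32.4% of all tested genes. Cpt1a, which admits fatty acids to mitochondria, rose from 71.4 to 110.5 CPM (log2 difference 0.63, adjusted p = 1.11e-07), and Fasn, fatty acid synthase, fell from 927 to 782 CPM (log2 difference -0.24, adjusted p = 0.00165).

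Feedback regulators of the ERK pathway were lower, 15 of 21, with 2 higher and 4 that did not pass (median -0.39). Spry4, an inhibitor of receptor signalling, was at 65.7, 60.5, 63.9 and 58.7 CPM in OGDR and 29.5, 26.2, 26.1 and 30.3 CPM in rTMS-MSCs (log2 fold change -1.15, SE 0.0823, adjusted p = 1.43e-09). Phlda1 went from 710.3 to 416 CPM (log2 difference -0.77, adjusted p = 1.18e-09) and Dusp6, the ERK phosphatase, from 244 to 190.4 CPM (log2 difference -0.36, adjusted p = 2.96e-05). The 2 that rose were Spry1, at 26.1, 27.2, 23.5 and 28.5 CPM in OGDR and 70.7, 64.5, 68.3 and 75.1 CPM in rTMS-MSCs (log2 fold change 1.404, SE 0.0759, adjusted p = 1.69e-11), and Errfi1, an inhibitor of the EGF receptor that is also a glucocorticoid target, at 38.1 to 75.7 CPM (log2 difference 0.99, adjusted p = 2.19e-09). Of 31 immediate early genes, 11 rose and 10 fell (median -0.10, or -0.14 without OGDR library 2, -0.05 without OGDR library 3 and -0.05 without rTMS-MSCs library 2), 67.7% against 32.4% of all tested genes. Egr1, an activity-induced transcription factor, was at 33.7, 36.4, 33.9 and 29.5 CPM in OGDR and 90.4, 90.8, 92.4 and 93.5 CPM in rTMS-MSCs (log2 fold change 1.46, SE 0.0731, adjusted p = 5.85e-12), and the 4 treated values lay within a few CPM of each other. Fos was at 8.57, 9.12, 10.4 and 8.68 CPM in OGDR and 19.6, 17.5, 18.4 and 20.6 CPM in rTMS-MSCs (log2 fold change 1.05, SE 0.114, adjusted p = 6.47e-07). Fosl2 (84.2 to 50.4 CPM, log2 difference -0.74, adjusted p = 1.65e-06) and Nr4a3 (6.79 to 2.66 CPM, log2 difference -1.35, adjusted p = 5.73e-06) were among those that fell, while Nr4a1 went from 82 to 119 CPM (log2 difference 0.54, adjusted p = 1.1e-06).

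Clock genes were more often lower than higher. Of 20 tested, 10 fell and 4 rose (median -0.40). Besides Per1, the risers included Bmal1, an activator of the loop (50.9 to 69.5 CPM, log2 difference 0.45, adjusted p = 0.000265), and Nfil3, a repressor of its output (32 to 46.3 CPM, log2 difference 0.53, adjusted p = 0.000549). Per2, a repressor, was at 21.6, 26.8, 23 and 24.1 CPM in OGDR and 13.5, 11, 11.6 and 12.3 CPM in rTMS-MSCs (log2 fold change -0.98, SE 0.114, adjusted p = 1.59e-06), Per3 at 32.9 to 17.3 CPM (log2 difference -0.92, adjusted p = 6.06e-06) and Cry1 at 29.1 to 17.2 CPM (log2 difference -0.76, adjusted p = 1.03e-05). Dbp, an output factor, was at 39.8, 48, 42.5 and 45.1 CPM in OGDR and 23.9, 25.1, 26.3 and 22.9 CPM in rTMS-MSCs (log2 fold change -0.84, SE 0.0822, adjusted p = 1.53e-07). Clock, the partner of Bmal1, was lower (64.7 to 45.6 CPM, log2 difference -0.50, adjusted p = 0.00138). Ciart, a repressor whose promoter is shown above, averaged 37.2 CPM in OGDR, 15.3 CPM in MSCs and 22.5 CPM in rTMS-MSCs. It was picked because its MSCs values lay below those of both groups, so that position is no result.

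**Figure D3:**
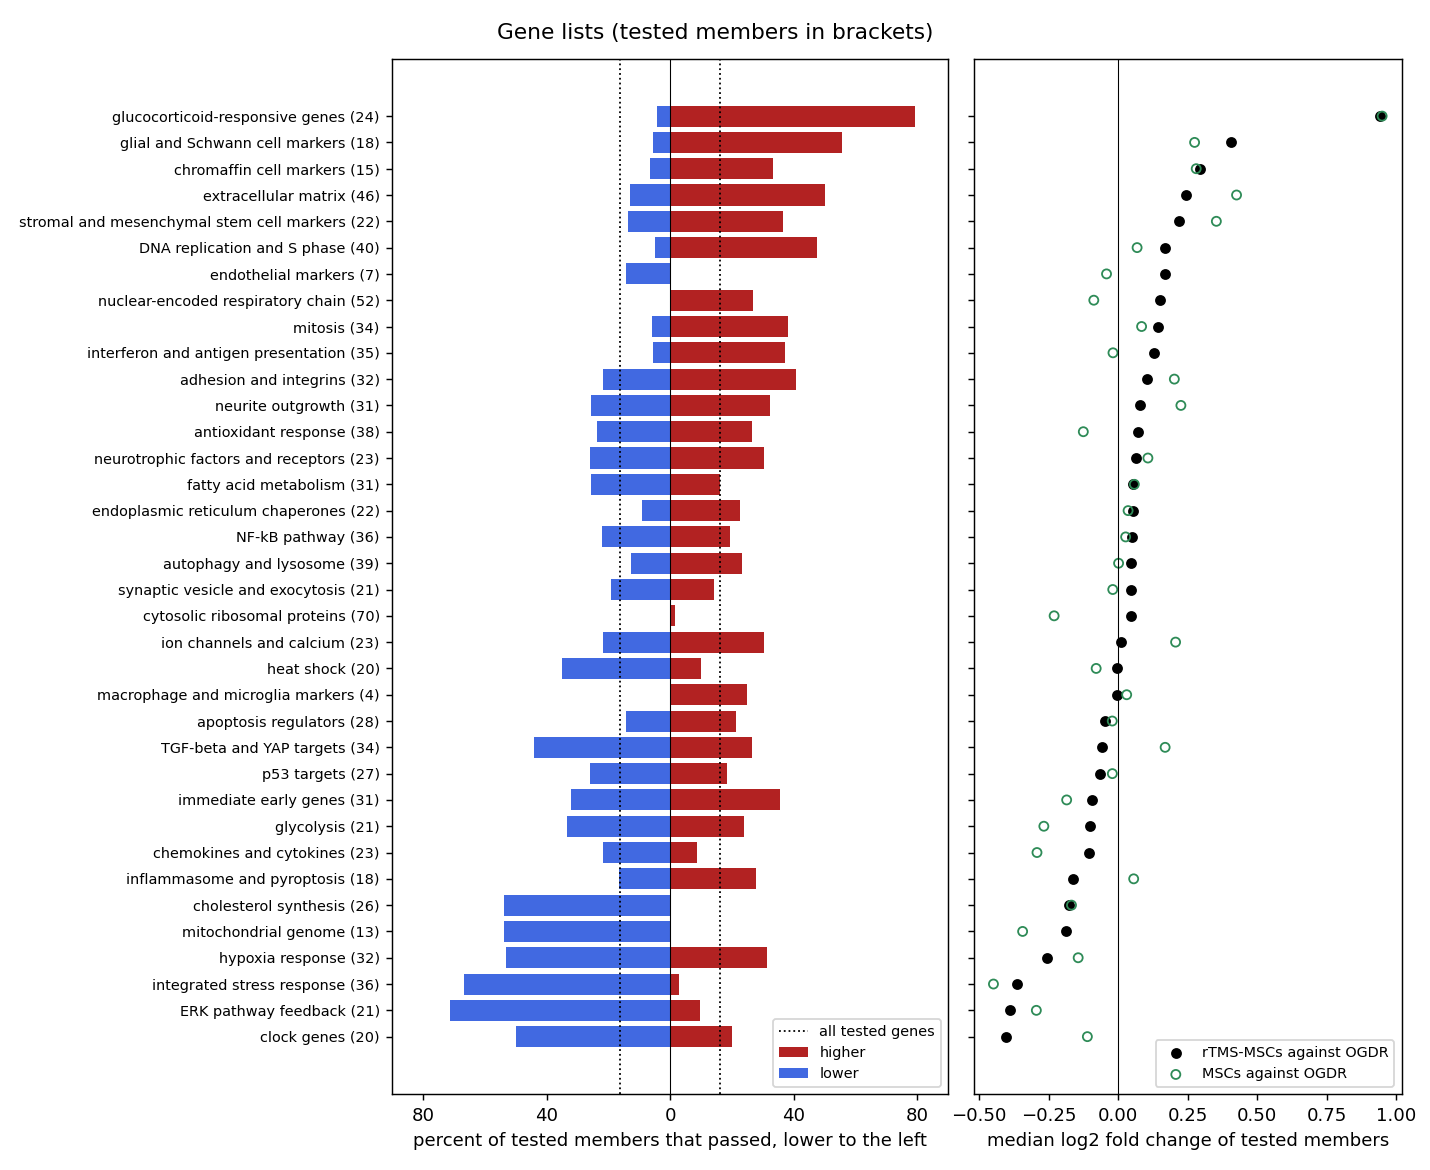
On the left, bars give the percent of tested members of each of 36 gene lists that were higher (right) or lower (left) in rTMS-MSCs, with dotted lines at 16.2% for all tested genes in each direction. On the right, filled points give the median log2 fold change of rTMS-MSCs against OGDR and open points that of MSCs against OGDR, 2 comparisons that share the OGDR libraries; the glucocorticoid list has the highest filled point (0.94) and the clock list the lowest (-0.40).

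Extracellular matrix genes were more often higher than lower in the combined treatment. Of 46 tested, 23 rose, 6 fell and 17 did not pass (median 0.25). Among them were chains of collagen VI. Col6a2 was at 635, 636, 572 and 587 CPM in OGDR and 1438, 1467, 1551 and 1329 CPM in rTMS-MSCs (log2 fold change 1.25, SE 0.0564, adjusted p = 1.18e-12) and Col6a1 went from 564 to 1255 CPM (log2 difference 1.16, adjusted p = 3.52e-13). Lamb2, a laminin chain of the nerve basement membrane, was at 145, 148, 149 and 142 CPM in OGDR and 294, 307, 299 and 259 CPM in rTMS-MSCs (log2 fold change 0.99, SE 0.0581, adjusted p = 6.43e-11). Elastin (Eln) went from 22.7 to 54.5 CPM, biglycan (Bgn) from 526 to 875 CPM and Sparc from 503 to 820.2 CPM, with adjusted p of 1.11e-08, 8.48e-10 and 8.29e-09. Per library, the median of the list was -0.001, -0.02, 0.05 and -0.03 in OGDR and 0.28, 0.54, 0.06 and 0.27 in rTMS-MSCs, so library 3, at the low end, lay just above the highest OGDR library.

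The list of stromal cell markers shares members with the matrix list. Of 29 listed genes found in the table, 22 were tested, 8 rose and 3 fell (median 0.22). The summed level of the 29 was 5289 to 5511 CPM in OGDR and 7021 to 7396 CPM in rTMS-MSCs. Of the 8 that rose, Col6a1, Col6a2 and Col3a1 are also matrix genes. Col6a1 (564 to 1255 CPM) and Col6a2 (607 to 1446 CPM) made up a large part of the higher sum. Among 10 defining stromal genes the sum was 485 to 510 CPM in OGDR and 362 to 477 CPM in rTMS-MSCs, and Lum had no count. These genes did not share a direction. Nt5e (13.2 to 19.3 CPM), Pdgfrb (42.2 to 51.2 CPM) and Col3a1 (0.319 to 1.07 CPM) rose. The 2 most abundant, Pdgfra (286 to 241 CPM) and Prrx1, fell, and the rest did not pass or were not tested. Mcam rose (157 to 229 CPM, log2 difference 0.55, adjusted p = 6.13e-08), while Prrx1, a transcription factor of mesenchyme, fell (152 to 102 CPM, log2 difference -0.57, adjusted p = 0.000124), as did Cd44 (601 to 475 CPM, log2 difference -0.34, adjusted p = 0.00011). RNA from the added stem cells, and its part in the matrix result, was not tested.

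TGF-beta and YAP targets split, with 9 of 34 higher and 15 lower (median -0.06, or -0.09 without OGDR library 2, -0.10 without rTMS-MSCs library 3 and -0.10 without rTMS-MSCs library 4). Ccn2, connective tissue growth factor, was at 708, 817, 719 and 879 CPM in OGDR and 1913, 1790.0, 1775 and 1777 CPM in rTMS-MSCs (log2 fold change 1.22, SE 0.0606, adjusted p = 5.46e-12) and Thbs1, an activator of TGF-beta, at 249, 264, 259 and 242 CPM in OGDR and 701, 695, 598 and 774 CPM in rTMS-MSCs (log2 fold change 1.45, SE 0.0689, adjusted p = 2.68e-12). Their means in the MSCs group were 2180.1 and 908 CPM. For adhesion and integrins, 13 of 32 rose and 7 fell (median 0.10, or 0.17 without OGDR library 4, 0.06 without rTMS-MSCs library 1 and 0.17 without rTMS-MSCs library 2). Sdc4, a syndecan of focal adhesions, was at 147, 166, 152 and 168 CPM in OGDR and 445, 445, 439 and 425 CPM in rTMS-MSCs (log2 fold change 1.47, SE 0.0547, adjusted p = 4.11e-14). Itga10, a collagen receptor subunit, went from 9.43 to 32.2 CPM (log2 difference 1.77, adjusted p = 2.97e-11), and Itgb8, which activates latent TGF-beta, from 95.2 to 47.1 CPM (log2 difference -1.01, adjusted p = 0.000626). Axin2, a Wnt target outside these lists, was at 100.2, 89.5, 92.3 and 92.5 CPM in OGDR and 37.5, 31.3, 28.2 and 33.8 CPM in rTMS-MSCs (log2 fold change -1.52, SE 0.0805, adjusted p = 1.25e-11).

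Glial and Schwann cell genes were higher, 10 of 18 tested, with 1 lower and 7 that did not pass (median 0.40). Pmp22, a peripheral myelin protein, was at 112, 121, 109 and 111 CPM in OGDR and 177, 174, 168 and 169.8 CPM in rTMS-MSCs (log2 fold change 0.60, SE 0.0522, adjusted p = 2.42e-08), and Egr2, the transcription factor of Schwann cell myelination, at 18.9, 25.1, 21.9 and 22.9 CPM in OGDR and 48.7, 44.7, 42.6 and 51.4 CPM in rTMS-MSCs (log2 fold change 1.08, SE 0.0915, adjusted p = 1.83e-08). Gfap (7.75 to 18.3 CPM, log2 difference 1.24, adjusted p = 6.35e-08), Olig2 (7.93 to 13.7 CPM, log2 difference 0.79, adjusted p = 6.32e-05) and Ngfr, the low-affinity neurotrophin receptor (158 to 217 CPM, log2 difference 0.46, adjusted p = 4.7e-07), were higher as well. Sox10, the lineage factor, did not pass (362 ± 35.6 CPM in OGDR and 404 ± 48.6 CPM in rTMS-MSCs, log2 difference 0.16, adjusted p = 0.115), and Erbb3, the neuregulin receptor, fell (144 to 114 CPM, log2 difference -0.34, adjusted p = 0.00238). The number that fell was 2 without OGDR library 1 or without library 1, 3 or 4 of rTMS-MSCs. The whole list summed to 1273 to 1386 CPM in OGDR and 1541 to 1671 CPM in rTMS-MSCs. Of 15 tested chromaffin cell markers, 5 rose and 1 fell (median 0.29), while the summed level of all 28 listed, given above, was lower without overlap. The share called was 40%, against 32.4% of all tested genes. The secretory enzyme gene Pcsk2 went from 3.3 to 6.78 CPM (log2 difference 1.04, adjusted p = 0.0007) and the granule protein gene Scg2 from 293 to 207 CPM (log2 difference -0.50, adjusted p = 1.72e-05). Without library 2 of rTMS-MSCs 3 rose, and without library 3 of rTMS-MSCs 2 fell. Of 4 tested macrophage markers Cd14 rose (log2 difference 0.41, adjusted p = 0.000809), and of 7 endothelial markers Flt1 fell (log2 difference -0.48, adjusted p = 6.44e-05). These shares of 25% and 14.3% were below the 32.4% of all tested genes. Without library 2 or 3 of rTMS-MSCs, 1 endothelial marker rose.

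Neuronal genes did not move in 1 direction. Of 31 neurite outgrowth genes, 10 rose and 8 fell (median 0.08, or -0.002 without OGDR library 4, 0.04 without rTMS-MSCs library 1, 0.002 without rTMS-MSCs library 4 and 0.02 in a fit of the 8 compared libraries). Crmp1, a mediator of semaphorin signalling, was at 248, 247, 226 and 227 CPM in OGDR and 488, 504, 499.8 and 452 CPM in rTMS-MSCs (log2 fold change 1.04, SE 0.0544, adjusted p = 1.17e-11), and Ncam1 (382 to 584 CPM), Tubb3 (15.5 to 26.5 CPM) and Stmn1 (423 to 555 CPM) were higher. Nrp2, a semaphorin receptor (779 to 489 CPM, log2 difference -0.67, adjusted p = 1.33e-08), and Chl1 (72.8 to 46.3 CPM, log2 difference -0.65, adjusted p = 0.00253) were lower. Without rTMS-MSCs library 1, 5 genes of the list fell instead of 8. Map1b passed (log2 difference 0.34, adjusted p = 0.0151) although its groups overlapped, with library 3 inside the OGDR range. Gap43 had 1 count in all libraries and was not tested.

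Of 23 neurotrophic factors and receptors, 7 rose and 6 fell (median 0.06, or 0.04 without OGDR library 3, 0.04 without rTMS-MSCs library 1, -0.03 without rTMS-MSCs library 3 and 0.03 without rTMS-MSCs library 4). Fgf9, a glial growth factor, was at 16.2, 17.6, 15.8 and 21.1 CPM in OGDR and 7.77, 8.27, 6.89 and 6.77 CPM in rTMS-MSCs (log2 fold change -1.25, SE 0.13, adjusted p = 3.5e-07). Bdnf was at 2.39, 2.96, 2.31 and 4.78 CPM in OGDR and 1.94, 1.42, 1.59 and 1.91 CPM in rTMS-MSCs (log2 fold change -0.85, SE 0.262, adjusted p = 0.017), a low level, and did not pass without OGDR library 4 (adjusted p = 0.104) or rTMS-MSCs library 2 (adjusted p = 0.0539). Gdnf (6.61 to 3.8 CPM) and Ntrk2, the BDNF receptor (16 to 9.8 CPM), were lower. Vgf, a neuropeptide precursor, went from 25.7 to 37.6 CPM (log2 difference 0.55, adjusted p = 0.000131). Th, the first enzyme of catecholamine synthesis, was at 0.0974, 0.197, 0.0482 and 0.26 CPM in OGDR and 0.398, 0.737, 0.318 and 1.0 CPM in rTMS-MSCs, under or near 1 CPM in every library (log2 fold change 2.00, SE 0.65, adjusted p = 0.0205), and did not pass when any 1 of 4 libraries was left out. Of 21 synaptic genes, 3 rose and 4 fell, 33.3% against 32.4% of all tested genes (median 0.05, from -0.008 without rTMS-MSCs library 2 to 0.07 without OGDR library 3). Among them were Vamp2 (89.3 to 134 CPM, log2 difference 0.58, adjusted p = 1.51e-07) and Cplx2 (29.5 to 15.7 CPM, log2 difference -0.92, adjusted p = 1.6e-06).

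Genes of DNA replication that passed were mostly higher, in small steps. Of 40 tested, 19 were higher, 2 lower and 19 did not pass (median 0.17), and none changed 2-fold. Only 1 fell without OGDR library 3 or rTMS-MSCs library 2. Tk1, thymidine kinase, was at 257, 271, 251 and 249 CPM in OGDR and 326, 334, 357 and 328 CPM in rTMS-MSCs (log2 fold change 0.39, SE 0.0575, adjusted p = 3.23e-05). Mcm2, part of the replicative helicase, went from 189 to 227 CPM (log2 difference 0.26, adjusted p = 0.00229), and Pcna, the sliding clamp, from 287 to 337 CPM (log2 difference 0.23, adjusted p = 0.00348). For mitosis, 13 of 34 rose and 2 fell (median 0.14), 44.1% against 32.4% of all tested genes. Kif20a, a kinesin of cytokinesis, was at 269, 271, 266 and 268 CPM in OGDR and 335, 348, 343 and 361 CPM in rTMS-MSCs (log2 fold change 0.37, SE 0.0461, adjusted p = 3.87e-06), with every treated library above every OGDR library, and Cdk1 went from 197 to 226 CPM (log2 difference 0.20, adjusted p = 0.00627). Mki67, the usual proliferation marker, did not pass (366 ± 22.5 CPM in OGDR and 371 ± 30.7 CPM in rTMS-MSCs, log2 difference 0.02, adjusted p = 0.873). The 2 mitotic genes that fell no longer passed without OGDR library 3, OGDR library 4 or rTMS-MSCs library 3, when none fell, and 1 fell without rTMS-MSCs library 2.

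Regulators of cell death were mixed, with 6 of 28 higher and 4 lower (median -0.05, or -0.03 without rTMS-MSCs library 4), 35.7% against 32.4% of all tested genes. Bcl2l1, which encodes the survival protein Bcl-xL, was at 185, 181, 172 and 177 CPM in OGDR and 279.6, 279.9, 295 and 279.8 CPM in rTMS-MSCs (log2 fold change 0.66, SE 0.0484, adjusted p = 1.9e-09). Xiap, a caspase inhibitor, was lower (8.28 to 3.6 CPM, log2 difference -1.20, adjusted p = 0.000259), and so was Bcl2l2, another survival gene (70.9 to 51.3 CPM, log2 difference -0.47, adjusted p = 7.06e-06). Bmf, a pro-apoptotic member of the family, was higher (8.49 to 12.6 CPM, log2 difference 0.56, adjusted p = 0.000678). Bcl2 (29.3 ± 1.98 CPM in OGDR and 28.4 ± 1.68 CPM in rTMS-MSCs, log2 difference -0.05, adjusted p = 0.731) and Bax (92.4 ± 5.89 CPM in OGDR and 104 ± 13.4 CPM in rTMS-MSCs, log2 difference 0.18, adjusted p = 0.0969) did not pass. The number that fell was 2 without OGDR library 3, OGDR library 4 or rTMS-MSCs library 3, and 8 without rTMS-MSCs library 4. Of 27 p53 targets, 5 rose and 7 fell (median -0.06, or -0.01 without rTMS-MSCs library 3), 44.4% against 32.4% of all tested genes. Among them were Phlda3 (240.3 to 362 CPM, log2 difference 0.59, adjusted p = 2.51e-05) and Gadd45a (192 to 129 CPM, log2 difference -0.58, adjusted p = 3.96e-06). Without OGDR library 4 or rTMS-MSCs library 3, 4 p53 targets fell, and without rTMS-MSCs library 4, 8 rose.

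For autophagy and lysosome genes, 9 of 39 rose and 5 fell (median 0.05, or 0.03 without rTMS-MSCs library 4), 35.9% against 32.4% of all tested genes. Tfeb, the factor that drives lysosomal genes, went from 19.1 to 27.2 CPM (log2 difference 0.51, adjusted p = 0.00104), and the lysosomal proteases Ctsb (814 to 943 CPM) and Ctsd (555 to 647 CPM) were higher. Optn, an autophagy receptor, was lower (111 to 74.3 CPM, log2 difference -0.58, adjusted p = 4.72e-06), as was Mcoln3, a lysosomal calcium channel (10.2 to 3.47 CPM, log2 difference -1.55, adjusted p = 5.38e-05). Of 23 ion channel and calcium genes, 7 rose and 5 fell (median 0.01, from -0.03 without OGDR library 2 to 0.13 without OGDR library 3). Kcna1, a voltage-gated potassium channel, was at 37, 33.9, 41.6 and 42.4 CPM in OGDR and 78.7, 70.9, 68.2 and 81.5 CPM in rTMS-MSCs (log2 fold change 0.95, SE 0.0792, adjusted p = 1.38e-08). The number of channel genes that rose was 2 without OGDR library 3 or 4, and 4 without OGDR library 2, rTMS-MSCs library 2 or rTMS-MSCs library 3.

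The strongest single decrease was in Gpha2, a glycoprotein hormone subunit, at 17.7, 18.5, 17.9 and 18.1 CPM in OGDR and 0.299, 0.527, 0.424 and 0.802 CPM in rTMS-MSCs (log2 fold change -5.12, SE 0.256, adjusted p = 5.46e-12). It was nearly absent in every treated library. Peg3, an imprinted zinc-finger gene, was at 202, 210.1, 264 and 268 CPM in OGDR and 96.7, 83.9, 55.4 and 84.6 CPM in rTMS-MSCs (log2 fold change -1.56, SE 0.129, adjusted p = 1.38e-08), with library 3 the lowest. Other large decreases were in Stc1 (stanniocalcin, -1.75), Pde2a (a cyclic nucleotide phosphodiesterase, -1.67), Lama3 (a laminin chain, -1.58), Scin (an actin-severing protein, -1.56), Spopl (-1.70) and Ro60 (-1.56). In absolute terms the largest losses were in abundant transcripts. Nptxr, a neuronal pentraxin receptor, was at 5779, 5730.4, 5464 and 5413 CPM in OGDR and 3396, 3555, 3657 and 3334 CPM in rTMS-MSCs (log2 fold change -0.68, SE 0.0461, adjusted p = 5.93e-10). Spp1, the secreted phosphoprotein osteopontin, was at 9133, 9483, 9225 and 9080.5 CPM in OGDR and 7169, 7235, 7359.6 and 7481 CPM in rTMS-MSCs (log2 fold change -0.34, SE 0.0372, adjusted p = 7.94e-07). Neither gene overlapped between the groups, as the naming rule required. Serpine2 (log2 difference -0.38, adjusted p = 7.89e-07), Akr1b10 (log2 difference -0.52, adjusted p = 7.26e-07), Eef1a1 (log2 difference -0.26, adjusted p = 0.00013) and Actg1 (log2 difference -0.32, adjusted p = 5.55e-06) were lower too. Eef1a1, Actg1, Fth1, Tuba1a and Rps16 have near-identical copies in the genome, so their counts are uncertain.

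Some genes are given with their level in the MSCs group as well, with no test. In each of them except Klf2 and Slc4a7, the MSCs mean lay outside the range between the means of the compared groups. Gda, Efnb2, Mcc, Prkce, Ccl4, Gipc2 and Gpr15lg were picked because their MSCs values lay outside those of both groups. For these genes that position was fixed by the choice and is no result. Gda, guanine deaminase, averaged 15.1 CPM in OGDR, 49.7 CPM in MSCs and 28.6 CPM in rTMS-MSCs. Efnb2, an ephrin ligand, averaged 3.68 CPM in OGDR, 13.8 CPM in MSCs and 7.72 CPM in rTMS-MSCs, Mcc 15.2 CPM in OGDR, 30.1 CPM in MSCs and 15.5 CPM in rTMS-MSCs and Prkce 5.13 CPM in OGDR, 9.05 CPM in MSCs and 4.5 CPM in rTMS-MSCs. On the low side, Ccl4 averaged 11.2 CPM in OGDR, 3.44 CPM in MSCs and 5.04 CPM in rTMS-MSCs, Gipc2 7.28 CPM in OGDR, 4.41 CPM in MSCs and 6.79 CPM in rTMS-MSCs and Gpr15lg 6.65 CPM in OGDR, 3.61 CPM in MSCs and 5.46 CPM in rTMS-MSCs. Egr1 averaged 33.4 CPM in OGDR, 23 CPM in MSCs and 91.8 CPM in rTMS-MSCs, and Klf2, a flow-responsive transcription factor, 2.79 CPM in OGDR, 6.95 CPM in MSCs and 13.4 CPM in rTMS-MSCs. Spopl averaged 7.6 CPM in OGDR, 8.05 CPM in MSCs and 2.33 CPM in rTMS-MSCs, Ro60 8.82 CPM in OGDR, 10.3 CPM in MSCs and 2.99 CPM in rTMS-MSCs and Slc4a7, a bicarbonate transporter, 56.7 CPM in OGDR, 53.6 CPM in MSCs and 21.2 CPM in rTMS-MSCs, so in these 3 the MSCs mean was near that of OGDR.

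**Figure D4:**
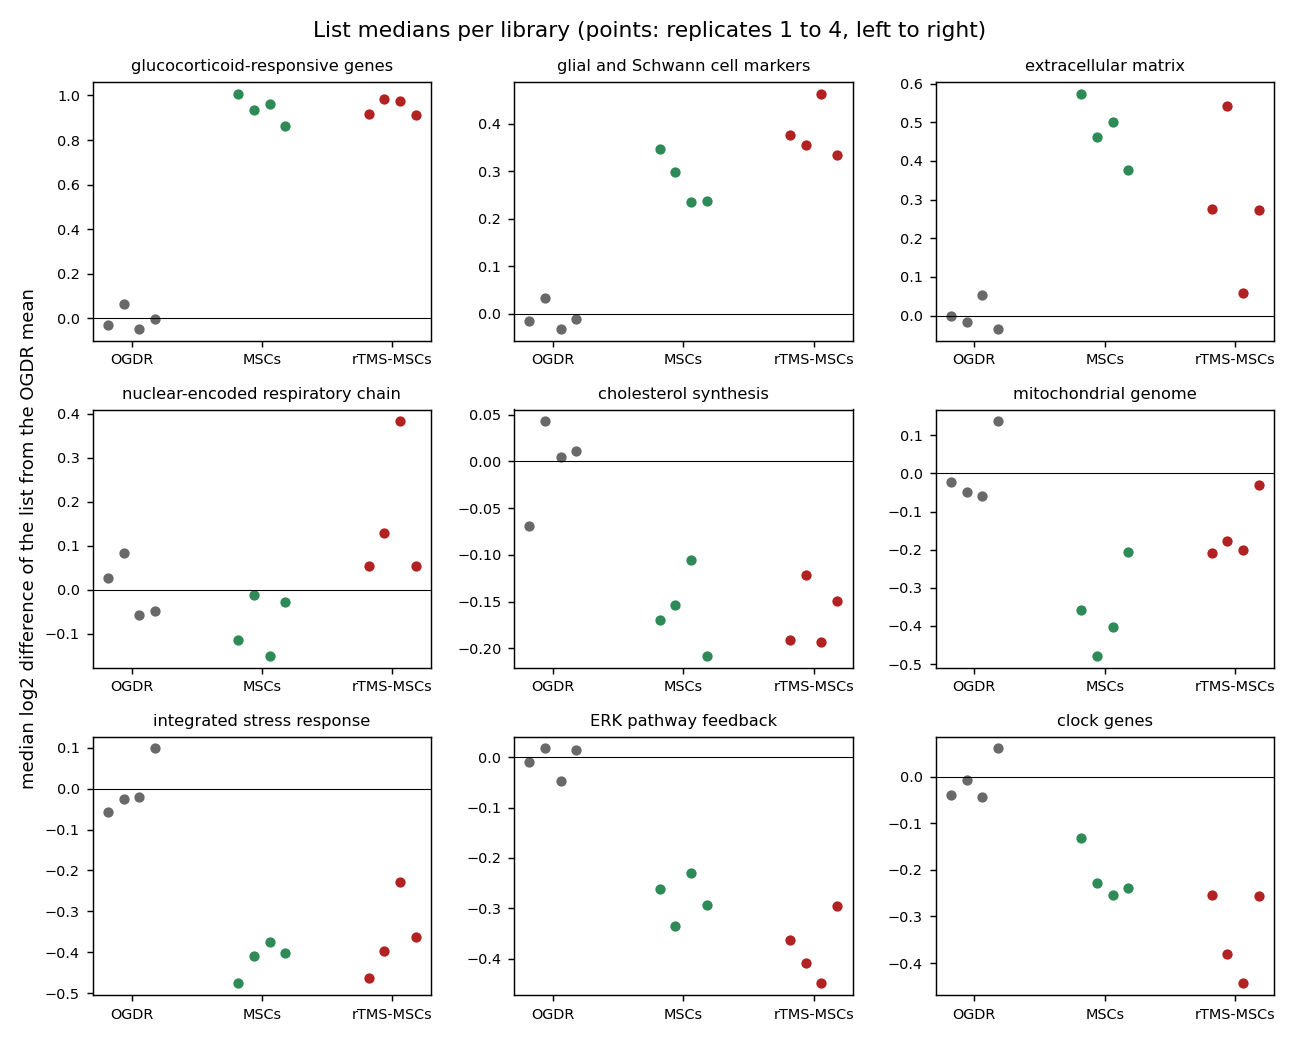
Each point is 1 library, and its height is the median over a list's tested members of the log2 difference from the OGDR mean. The glucocorticoid list lies near 0.94 in all 4 rTMS-MSCs libraries, while library 3 is high for the nuclear-encoded respiratory chain (0.38) and low for the extracellular matrix (0.06).

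Direction also varied with the genomic span of a gene, from the first to the last base of its RefSeq model. A span was found by symbol for 12220 of the 13692 tested genes (89.2%), and these were cut into 4 equal groups. In the shortest group (median 4.72 kb) 22.3% of genes were higher and 6.84% lower, with a median log2 fold change of 0.12. In the longest group (median 104.5 kb) 11.2% were higher and 30.7% lower, with a median of -0.12. Medians of single libraries for the longest genes were -0.04, -0.03, 0.05 and 0.02 in OGDR and -0.09, -0.12, -0.23 and -0.05 in rTMS-MSCs. All 4 treated libraries were below all 4 OGDR libraries, and library 3 was farthest out. For the shortest genes the medians were 0.03, 0.05, -0.05 and -0.03 in OGDR and 0.07, 0.11, 0.26 and 0.03 in rTMS-MSCs, and these overlapped. Without library 3, 17.4% of the shortest genes were higher and 6.84% lower (median 0.07), and 11.2% of the longest were higher and 25% lower (median -0.09). Lists differ in span, with medians of 8.07 kb for the nuclear respiratory chain, 52.7 kb for the extracellular matrix and 97.5 kb for neurite outgrowth. The part of span in the list results was not tested.

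**Figure D5:**
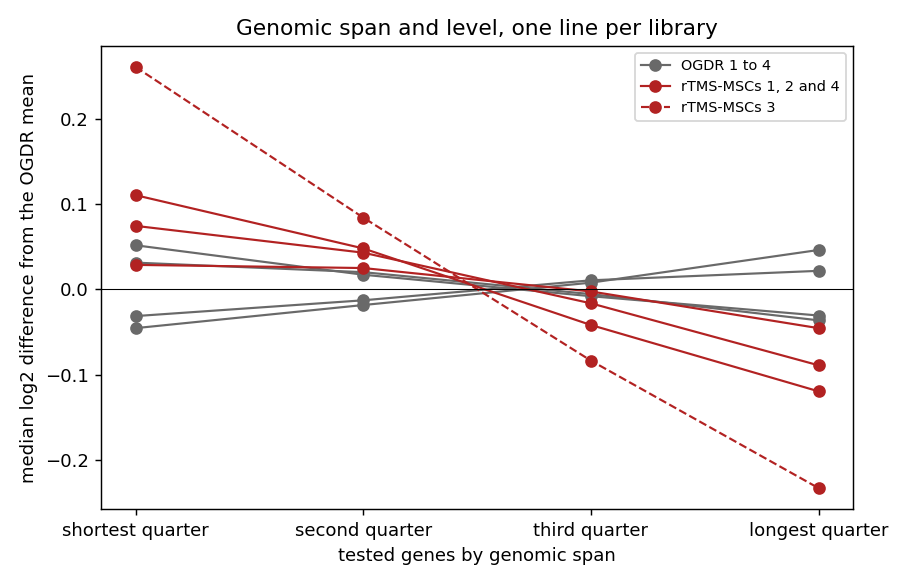
Each line is 1 library, and its points are the median log2 difference from the OGDR mean in 4 equal groups of tested genes ordered by genomic span. All 4 rTMS-MSCs lines and those of OGDR 1 and 2 end lower at the longest genes than they begin at the shortest, and the dashed line of library 3 is the steepest (0.26 to -0.23).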

How the data were processed

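Libraries were made from TRIzol-extracted RNA, per the labels' protocols: polyadenylated RNA was captured with oligo(dT) beads and cDNA was primed with random hexamers. Per the submitters' processing notes, HISAT2 2.1.0, HTSeq 0.11.2, DESeq2 1.40.1 and the genome build mRatBN7.2 were used. No source used here says whether reads were counted by strand, so overlapping and antisense genes may share reads. The deposited table holds a raw count per gene and library. The 5 HTSeq summary lines entered neither library sizes nor tests, and reads on no feature made up 51.7% to 52.7% of each library. The design text speaks of a microarray and more samples, while the labels and table give 12 sequencing libraries.

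Counts were analysed in R 4.3.3 with edgeR 4.0.16: filterByExpr (minimum count 10, minimum total 15), TMM scaling, and 1 quasi-likelihood model of all 12 libraries with a mean per group. The contrast was rTMS-MSCs minus OGDR, 2-sided, with Benjamini-Hochberg adjustment over 13692 genes and a threshold of 0.05. "Rose" and "fell" are used only of genes that passed. SE is the log2 fold change divided by the root of the F statistic. CPM uses TMM-scaled totals. Where a symbol had several rows, that with most counts was used. Replicates that share a number were not treated as pairs: the correlations of their deviations from group means were -0.06, -0.004, -0.17 and 0.06. No libraries were duplicates.

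The 36 gene lists (1161 symbols, 1134 found, 962 tested) and the named genes were chosen with earlier results of these data known, so they are described by counts and medians without list tests. The naming rule took, among genes with adjusted p under 0.05, a symbol, at least 5 CPM in the higher group and no overlap, the 12 largest fold changes and 8 largest CPM differences per direction. It added up to 3 members of smallest p per list, a panel of known genes, and 4 genes per direction with MSCs levels outside both groups. Not every gene of the rule is printed, and results for some genes are not reported here. These further genes were chosen after their values were seen: Adm, Asns, Axin2, B2m, Bgn, Bhlhe40, Bhlhe41, Bmal1, Bmf, Bnip3, Cars1, Cd44, Cdk1, Chl1, Clock, Col3a1, Cry1, Ctsb, Ctsd, Cxcl1, Dusp6, Eln, Erbb3, Errfi1, Fam107a, Fasn, Fosl2, Gdnf, Glul, Gpd1, Hk2, Hsp90aa1, Itgb8, Klf15, Klf2, Lcn2, Ldha, Map3k6, Mcm2, Nfil3, Nr3c1, Nr4a1, Nr4a3, Ntrk2, Olig2, Pcna, Pdk1, Per3, Pgk1, Prrx1, Pycard, Pycr1, Rel, Rsad2, Sgk1, Slc1a4, Slc2a1, Slc4a7, Slc7a1, Slc7a11, Sparc, Stmn1, Tef, Tfeb, Tnfaip3, Trib3, Tsc22d3, Tubb3, Vgf, Vhl and Xiap. Alternatives were median-ratio and upper quartile scaling, DESeq2 1.42.0, limma 3.58.1 voom with quality weights, other filters, a fit of 8 libraries, the replicate block, a threshold of 0.01 and leaving out each library. Promoters came from RefSeq, and 167 of 221 named genes had one. Figures were drawn with matplotlib 3.10.9.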

Additional observations from a re-analysis of the deposited data

Results flagged for a closer look

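In 20 of 456 groups of 4 values checked, 1 library lay far from the other 3 by Dixon's criterion for outliers, and chance alone marks about 5% of such groups. In OGDR 2, Scin was at 8.97 CPM (the others 7.60 to 7.79). In OGDR 3, Ctsb was at 795 CPM (the others 818 to 822) and Htra2 was at 46.8 CPM (the others 55.3 to 56.7). There, Mki67 was at 400.1 CPM (the others 353 to 358) and Prkce was at 6.22 CPM (the others 4.73 to 4.82). There, Spopl was at 11 CPM (the others 6.26 to 6.67). In OGDR 4, Mlc1 was at 0.0519 CPM (the others 0). OGDR 4 also had the fewest counts in genes of its group (19072000, rounded, against 20379400 to 20471800 in the others). Its share of mitochondrial counts was 3.73%, against 3.29% to 3.33%. In rTMS-MSCs 1, Ccn2 was at 1913 CPM (the others 1775 to 1790.0) and Mcam was at 219 CPM (the others 232 to 234). There, Nr4a1 was at 107 CPM (the others 122 to 124). In rTMS-MSCs 2, Sult1a1 was at 30.0 CPM (the others 36.8 to 37.7). In rTMS-MSCs 3, Bcl2l1 was at 295 CPM (the others 279.6 to 279.9) and Cadm3 was at 18.3 CPM (the others 16.2 to 16.3). There, Loxl3 was at 2065 CPM (the others 1743 to 1795). In rTMS-MSCs 4, Col6a1 was at 1177 CPM (the others 1277 to 1286) and Mt-nd2 was at 2157 CPM (the others 1801 to 1854). There, Ogn was at 6.97 CPM (the others 4.95 to 5.18) and P4hb was at 1466 CPM (the others 1542 to 1545).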

How the results depend on the processing

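The count of 4439 changed genes stayed between 4109 and 4715 under other scalings, filters, tests and a fit of the 8 libraries. Leaving out 1 library gave 3461 to 4683 changed genes, 1759 to 2294 higher and 1702 to 2389 lower, the lowest without OGDR library 3. At an adjusted p under 0.01 the counts were 2724 changed, 1409 higher and 1315 lower. The replicate block gave 4185 genes (2100 higher, 2085 lower), and the labels do not tell whether the replicate numbers pair the samples. Of 209 named genes that passed, 204 kept their call in all 14 settings tried. Many of them were named for large changes, small p or no overlap, so this does not describe genes at large. Of all genes that had passed, 76.4% (without OGDR library 3) to 92.8% (without rTMS-MSCs library 4) did so again with 1 library left out. The exceptions among the named genes were Bdnf, Mt-cyb, Orai1, Rps16 and Th. Bax passed without rTMS-MSCs library 4 (log2 fold change 0.24). Mcc, which did not pass, changed sign without OGDR library 1 (-0.02), OGDR library 4 (-0.05) or rTMS-MSCs library 4 (-0.10), and so did Mki67 without OGDR library 2 (-0.000219), OGDR library 4 (-0.005) or rTMS-MSCs library 4 (-0.034). With 1 library left out, Mcc ran from -0.10 to 0.14 and Mki67 from -0.034 to 0.063. The causes were not tested. Depth limits genes under 1 CPM, of which 5.04% passed.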
